A study of Homo sapiens with 4 samples.

Results

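The results below describe 1893 N6-methyladenosine (m6A) sites in 1328 genes whose level stayed high while most sites like them lost methylation under ascorbic acid. They were chosen by their own values. A site had to be present in the lists of all 4 libraries, have 50 or more reads with A or G in every library, lie in a named gene, have a mean control level between 50% and 90%, and show a mean difference, ascorbic acid minus control, of at least -2 percentage points. Of 218950 sites listed in at least 1 library, 83983 were listed in all 4, 51479 of these had a named gene and the required reads, and 14142 in 5521 genes had the required control level. Of these 14142 eligible sites, 1893 (13.4%) met the last term and are called retained sites here, while 12249 fell by more than 2 points.

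The cells were HEK293T, a human embryonic kidney line that carries the SV40 large T antigen. Both groups were labelled by treatment alone, as wild-type control cells (2 libraries) and as cells given ascorbic acid (2 libraries). Ascorbic acid was added after 24 h of seeding and kept for 36 h with a medium change every 6 h. The sources used here do not give the dose, nor whether the replicates were separate cultures, so p-values measure only the spread between these samples, which may be technical. GLORI, the assay, deaminates adenosine that has no methyl group, which sequencing then reads as G, and leaves m6A to be read as A. The level of a site is the percent of its A plus G reads that carry A. Of 10 HEK293T markers, 5 had a site listed in all libraries, among them NEFM, NEFL, VIM and CDH2, and 5 did not, and of 13 markers of blood, vessel, liver and fibroblast cells none had one. Each library listed between 132989 and 144171 sites with between 22592887 and 28562744 A plus G reads over them.

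In messenger RNA, m6A is written mostly by a complex around METTL3 and METTL14 at an adenosine inside the DRACH motif, in which the adenosine is followed by C, and it is dense in long internal exons and around stop codons. FTO and ALKBH5, iron-dependent dioxygenases for which ascorbate is a cofactor in vitro, can remove it. The first transcribed base of many messenger RNAs, where it is an adenosine, carries a related mark next to the cap, m6Am, which is methylated on base and sugar and whose base methyl group is written by PCIF1 and can be removed by FTO. GLORI reads m6Am as A too, so the counts at a transcript's first base do not tell m6A from m6Am.

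The first sequences shown are those at annotated transcript starts, where 46 of the 1893 retained sites (2.43%) lay, because a larger share of the eligible sites was retained there than over all positions. They come from RefSeq (GRCh38.p14), run 5′ to 3′ as the RNA strand with T for U, and span 10 bases on each side of the site. At a start, the bases before the site are genomic sequence that lies before the first base of that annotated transcript. Capitals mark the site's adenosine and the base before it.
TUBA1C: ccaccctttCActacttctcc
COX6A1: gcgctgcggCAgtccagatca
HSP90AA1: gtggcgcgtCAgttgcttcag
TUBB4B: cgtcggttgTAgcactctgcg
POLR2L: cgggccgggCAgtctgggacg
PPIF: gctgcgcggGActcggccttc
These windows lie at chr12:49265072-49265092 (plus strand), chr12:120438103-120438123 (plus), chr14:102087034-102087054 (minus), chr9:137241277-137241297 (plus), chr11:842519-842539 (minus) and chr10:79347459-79347479 (plus). A C or a T stands before the adenosine in the first 5, and PPIF is the exception, with a G before the adenosine and the letters GGACT around it.

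For comparison, 3 retained sites away from a start are shown that lie within a RefSeq promoter window (250 bases before to 50 after an annotated start), with the 5 letters around the adenosine in capitals. They were picked among those with a C after the adenosine, and 10 retained sites in all had such a window more than 10 nt from a start.
TATDN2: gacttgggGGACTgccgagca
ZNF275: ttgtcctaGAACTggcacagc
GTF3C4: cactttagGAACTaaagcctg
These windows lie at chr3:10280804-10280824, chrX:153351827-153351847 and chr9:132670294-132670314, all on the plus strand. Of the 2169 sites that fell in such a window, all 2169 had an adenosine at the site in RefSeq. No genome was at hand for the other sites, so no motif is given for them.

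The values below are a description without a test, because the rule allows a fall of at most 2 points between the group means. It limits neither single libraries nor rises of the retained sites. Their median level was 64.7% and 66.2% in the 2 control libraries and 66.7% and 65.9% in the 2 ascorbic acid libraries. The eligible sites that fell had medians of 69.3% and 70.4% in control and of 55.8% and 55.4% under ascorbic acid. The median change of the retained sites was 0.019 points, the middle 50% of them lay between -1.17 and 1.74 points, and the extremes were -1.997 and 14.2 points. Within 2 points of control lay 1465 of them, 953 were higher by any amount, and 127 were higher by more than 5 points. Between the 2 control libraries a retained site differed by a median of 3.94 points, and between the 2 ascorbic acid libraries by 3.62 points, against 1.33 points between the group means.

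Of the retained sites, 182 (9.61%) had both ascorbic acid libraries above both control libraries and 101 (5.34%) had both below, against 4.22% above and 55.4% below among all 78509 sites with at least 20 reads in each library. The quasi-likelihood test of edgeR on the reads with A and with G, fitted on those 78509 sites with Benjamini-Hochberg adjustment at 0.05, called 25.7% of them as fallen and 0.22% as risen. It called 0 retained sites as fallen (0 also at an unadjusted p under 0.05, and 0 with limma and with DESeq2) and 5 as risen (22 at an unadjusted p under 0.05, and 0 with limma and with DESeq2). The rule used this contrast, so nothing is read from these counts. Without control library 1 the fallen were 3.

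The name unchanged holds for these sites in part only. When the rule was applied to control 1 and ascorbic acid 1 alone, it chose 2626 sites, and in the libraries that had no part in the choice, control 2 and ascorbic acid 2, their median change was -4.52 points and 817 (31.1%) lost no more than 2 points. In the same held-out libraries, all sites at 50% to 90% in control 1 changed by a median of -9.88 points and 14.9% lost no more than 2 points. The other 3 ways to divide the libraries gave held-out medians of -3.06, -4.14 and -3.54 points, with 42.8%, 33.4% and 39.0% of the chosen sites losing no more than 2 points. In all 4 divisions the median of the chosen sites in the held-out libraries was closer to 0 than that of all sites at 50% to 90%, which include the chosen ones and were not matched to them on level, and most chosen sites still lost more than 2 points. With at least 500 reads in each library the held-out medians were -3.18, -1.49, -2.55 and -1.50 points, over 121 to 199 chosen sites. At that depth 33.2%, 58.7%, 37.9% and 57.4% of the chosen sites lost no more than 2 points. Among all sites at 50% to 90% with as many reads it was 7.92%, 14.6%, 8.51% and 12.8%.

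**Figure D1:**
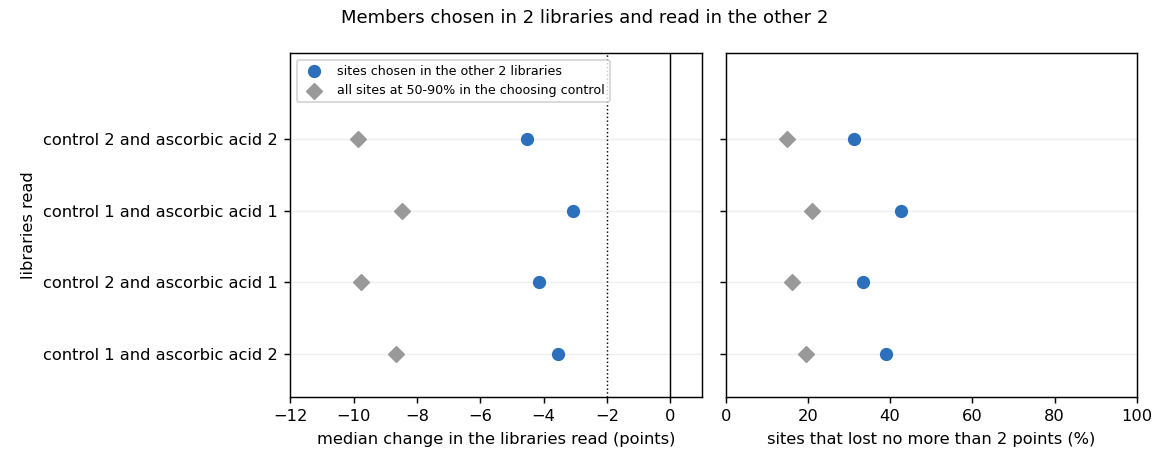
Median change in level (left, percentage points, ascorbic acid minus control) and percent of sites that lost no more than 2 points (right) in the 2 libraries named on the vertical axis, for sites chosen by the rule in the other 2 libraries (circles) and for all sites at 50% to 90% in the choosing control library (diamonds). The chosen sites had medians between -4.52 and -3.06 points and all sites between -9.88 and -8.46 points, so the circles stand to the right of the diamonds and to the left of the dotted line at -2 points.

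Read depth set how firmly a single site could be placed. The least-read library of a retained site held a median of 113 A plus G reads, and 834 of the 1893 had under 100. For the difference on pooled reads, the 95% counting interval reached a median of 7.59 points to each side, which was 9.84 points for the 834 shallow sites and 2.06 points for the 41 sites with at least 1000 reads in every library. In 516 sites (27.3%) of 429 genes this interval lay wholly above -5 points. The intervals cover counting error only, and the sources used here do not say whether copies made by PCR were collapsed. The retained share of eligible sites was 15.7% under 100 reads, 13.9% from 100 to under 200, 10.99% from 200 to under 500, 9.33% from 500 to under 1000 and 7.71% from 1000 reads on. By control level it was 17.2% at 50% to 60%, 14.3% at 60% to 70%, 12.03% at 70% to 80% and 9.38% at 80% to 90%.

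The 10 most deeply read retained sites, whose levels are known best, lay in H1-10, HSPA1B, TUBA1C, ATP5F1B, H2AX, PIM3, SLC35A4, TK1, ZNF703 and ZNF503. The site whose least-read library held the most reads lay in H1-10, a linker histone gene with a polyadenylated transcript. This site stood at chromosome 3 position 129316150, 136 nt after the annotated start of the gene (129314771 to 129316286, minus strand). Its level was 74.4% and 74.8% in the control libraries and 74.0% and 74.1% under ascorbic acid, on at least 6716 reads in each. In HSPA1B, an inducible HSP70 chaperone gene without introns, the site at chromosome 6 position 31827872 stood at 62.6% and 65.3% in control and at 62.7% and 62.6% under ascorbic acid. The ascorbic acid values of HSPA1B lay inside the control range and those of H1-10 below it, by less than 1 point. HSPA1B has a near-identical copy, HSPA1A, and reads of the pair may have been split.

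H2AX, the histone variant that is phosphorylated at DNA breaks, had a site at chromosome 11 position 119093970 with 63.0% and 61.4% in control against 60.8% and 59.7%, a difference of -1.97 points. Both ascorbic acid values of H2AX were below both control values, and it stood just inside the limit of the rule. SNU13 (-1.99 points), a small nucleolar ribonucleoprotein subunit, and WDR6 (-1.96 points) stood as close to it, and HOXA10 (-2.003 points), PPM1G (-2.008 points) and TSPYL1 (-2.04 points) stood just outside. Thymidine kinase TK1, at chromosome 17 position 78174540, had 53.3% and 54.1% in control and 53.8% and 52.6% under ascorbic acid. SLC35A4 at chromosome 5 position 140566905 had 80.7% and 80.4% against 81.2% and 78.5%. In TK1 and SLC35A4 one ascorbic acid library lay within or above the control values and the other below them.

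The highest retained levels stood near the upper limit of the rule. Among sites with at least 200 reads in each library, ADO, a thiol dioxygenase gene, had 90.6% and 89.4% in control and 86.8% and 90.5% under ascorbic acid at chromosome 10 position 62805823. ALDH1B1, a mitochondrial aldehyde dehydrogenase, had 90.02% and 89.8% against 91.3% and 90.5% at chromosome 9 position 38396305. WFS1, CCDC71L, ZNF503, RNF26, CACTIN, POMGNT2, TMEM127 and BRF2 followed, with changes between -1.96 and 0.91 points. The groups overlapped in ADO, while both ascorbic acid libraries of ALDH1B1 were above both controls, by less than 1 point at the nearest pair.

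A retained site could stand next to one that lost much of its methylation in the same gene, by genomic position. PIM3, a serine/threonine kinase gene, had a retained site at chromosome 22 position 49963295 with 81.9% and 81.3% in control and 81.5% and 78.9% under ascorbic acid. At 98 nt from it, position 49963197 fell from 63.2% and 68.0% to 43.0% and 45.2% (edgeR adjusted p = 1.18e-13). In SUGP2, a splicing-associated protein gene, chromosome 19 position 19025833 held 60.8% and 66.9% in control and 61.4% and 63.4% under ascorbic acid, while position 19025908, only 75 nt away, fell from 74.0% and 74.5% to 17.4% and 16.9% (edgeR adjusted p = 4.66e-25). Within 41 nt in CASP2, an apoptotic protease gene, a retained site changed by -0.59 points and its neighbour by -23.7 points. FZR1, an activator of the anaphase-promoting complex, held a pair 193 nt apart that changed by -1.38 and -39.9 points. PCYT2, MAPK1IP1L, NDOR1, TICRR, FAAP100 and LOC150776 gave such pairs as well, with the neighbour falling by between 22.6 and 37.6 points. These neighbours were picked because they fell by more than 20 points, so their falls are a description of how close the 2 kinds of site can lie.

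**Figure D2:**
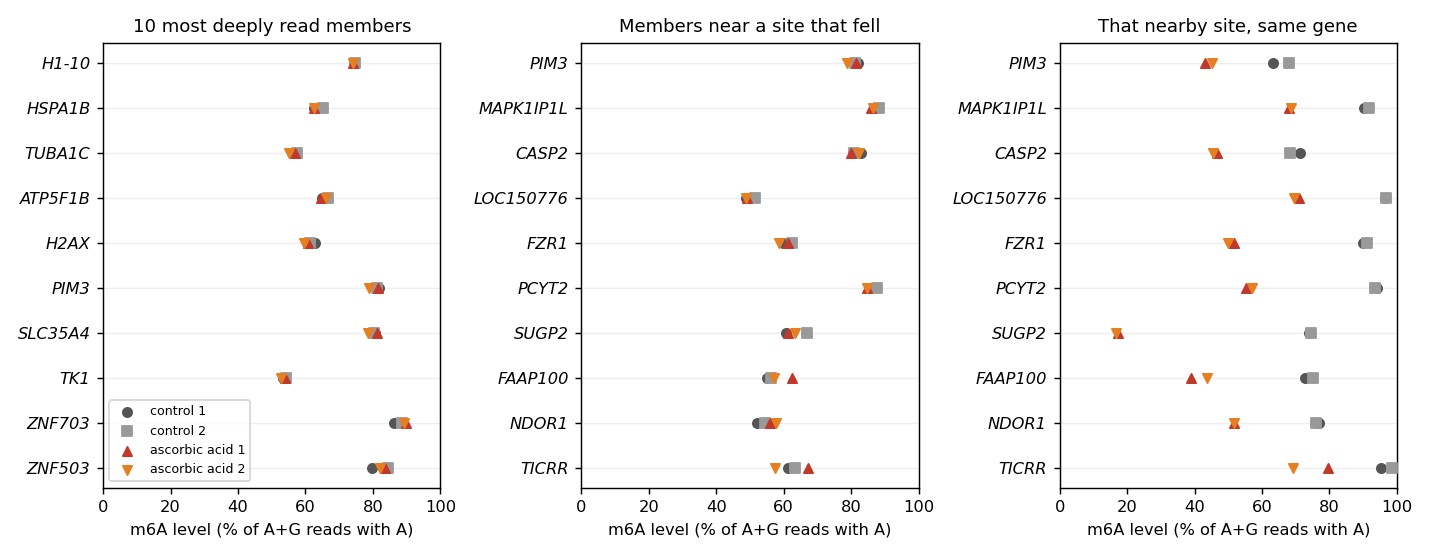
m6A level (percent of A plus G reads that carry A) in each of the 4 libraries for the 10 most deeply read retained sites (left), for 10 retained sites with a site within 200 nt that fell by more than 20 points (middle), and for that nearby site of the same gene (right). The 4 symbols lie within a few points of each other at the left and in most rows of the middle, while at the right both ascorbic acid symbols lie left of both controls in all 10 genes, as in SUGP2 with 74.0% and 74.5% against 17.4% and 16.9%.

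Most genes with a retained site had only 1, and few held them throughout. One retained site was found in 972 genes, 2 in 233, 3 in 68 and 4 or more in 55. Of the 1068 genes with a retained site and at least 2 eligible ones, 41 had retained sites only, and 234 had an eligible site that fell by more than 20 points. Of the 1235 genes with 4 or more eligible sites, KLF11 and ZFP36L1 were the only 2 in which all were retained. KLF11 encodes a zinc finger repressor and ZFP36L1 a protein that binds AU-rich elements and promotes decay of messenger RNA.

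In KLF11 the 4 sites had mean levels of 89.3%, 79.4%, 81.7% and 68.2% in control and of 90.2%, 79.5%, 80.2% and 68.4% under ascorbic acid. Those of ZFP36L1 had 59.1%, 70.0%, 64.9% and 72.0% in control and 59.3%, 69.1%, 65.8% and 75.8% under ascorbic acid. The groups overlapped at all 4 sites of both genes.

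ZNF503, a zinc finger repressor gene, had the most retained sites, 9 of 14 eligible, all within a stretch between 1750 and 3261 nt after an annotated start. Its deepest, at chromosome 10 position 75399404, had 79.8% and 84.4% in control and 83.5% and 82.1% under ascorbic acid. GAS1, an intronless gene for a membrane co-receptor of hedgehog proteins, had 7 of 9, and one at chromosome 9 position 86945526 had 79.8% and 80.3% against 78.1% and 78.3%, lower in both treated libraries. Its 2 eligible sites that were not retained fell by no more than 7.04 points. ALDH1B1 (6 of 9), GNA12 (6 of 10), INTS5 (6 of 9), LOC100129034 (6 of 10), SFMBT2 (6 of 10), RBM15 (6 of 14) and GEMIN4 (5 of 13) were others with many. In the genes named here the lowest eligible change was -15.3 points, in SFMBT2.

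**Figure D3:**
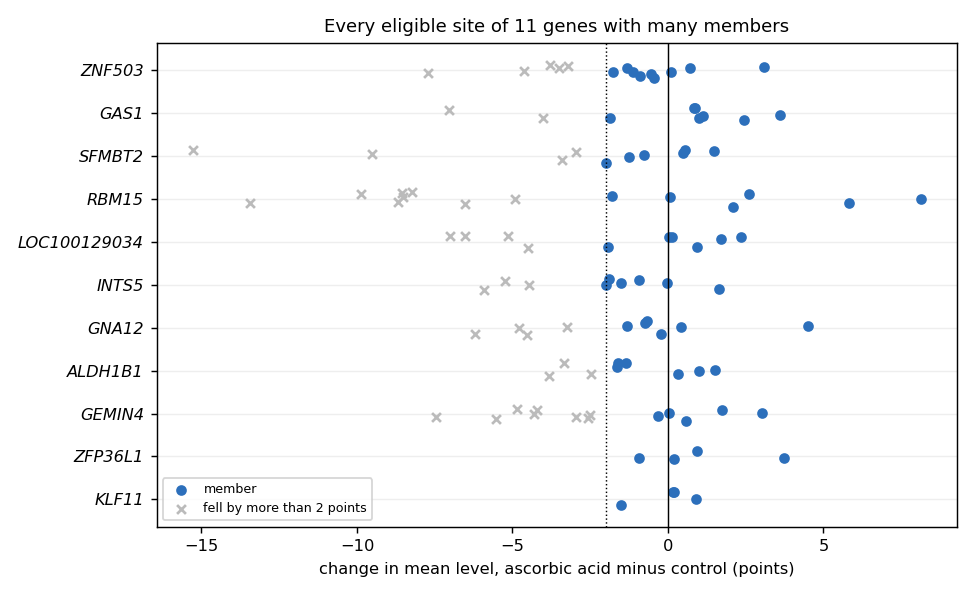
Change in mean level (percentage points, ascorbic acid minus control) at every eligible site of 9 genes with many retained sites and of KLF11 and ZFP36L1, with retained sites as circles and the others as crosses; the vertical scatter within a gene has no meaning. ZNF503 shows 9 circles and SFMBT2 the lowest cross, at -15.3 points, and by the rule no circle lies left of the dotted line at -2 points.

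The other sites of these genes lost less than sites elsewhere. Sites at 50% to 90% in control that were not retained but lay in a gene with a retained site changed by a median of -7.76 points (3386 sites, 12.3% of which fell by more than 20 points), against -11.99 points in genes without one (8863 sites, 25.3%). Those at least 200 nt from every retained site changed by -8.27 points. A read can cover several sites and all sites share the 4 libraries, so these are descriptions. The retained sites themselves are left out of both sides.

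Short genes held more of the retained sites than their share. Gene span here is the genomic length from annotated start to end, introns included. Among protein-coding genes, 22.6% of the eligible sites were retained in genes under 2 kb, 26.5% at 2 to 5 kb, 17.0% at 5 to 10 kb, 14.6% at 10 to 20 kb, 10.7% at 20 to 50 kb, 9.37% at 50 to 100 kb and 11.5% from 100 kb on. The median change of all eligible sites over the same classes was -4.86, -4.62, -7.42, -8.65, -10.1, -10.6 and -11.2 points. The retained sites lay in genes with a median span of 19439 nt and the fallen ones in genes of 31870.5 nt. The difference was also seen with at least 100 reads in each library (14142 against 27790 nt) and at control levels of 70% to 90% (16883.5 against 32683 nt). With at least 500 reads the retained share was 18.9% at 2 to 5 kb (40 of 212 sites), 4.44% at 20 to 50 kb (20 of 450) and 13.3% from 100 kb on (10 of 75). Several of these last 10 sites lay in a single gene, ZNF503, whose annotated span is 122192 nt. The share from 100 kb on at this depth is therefore not read as one of long genes at large.

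Position within the gene added to this. Under 500 nt from the annotated 3′ end, 9.31% of the eligible sites of protein-coding genes were retained, then 13.2% from 500 to under 1000 nt, 16.8% at 1 to 2 kb, 16.6% at 2 to 5 kb, 14.3% at 5 to 10 kb, 8.71% at 10 to 50 kb and 8.71% beyond. In genes under 5 kb the share went from 16.2% in the last 500 nt to 23.6%, 29.3% and 35.4% in the next classes. In genes of 20 kb or more it was 5.96% in the last 500 nt and highest, at 13.96%, between 1 and 2 kb. No transcript annotation was used, so exon, intron and untranslated region are not given.

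**Figure D4:**
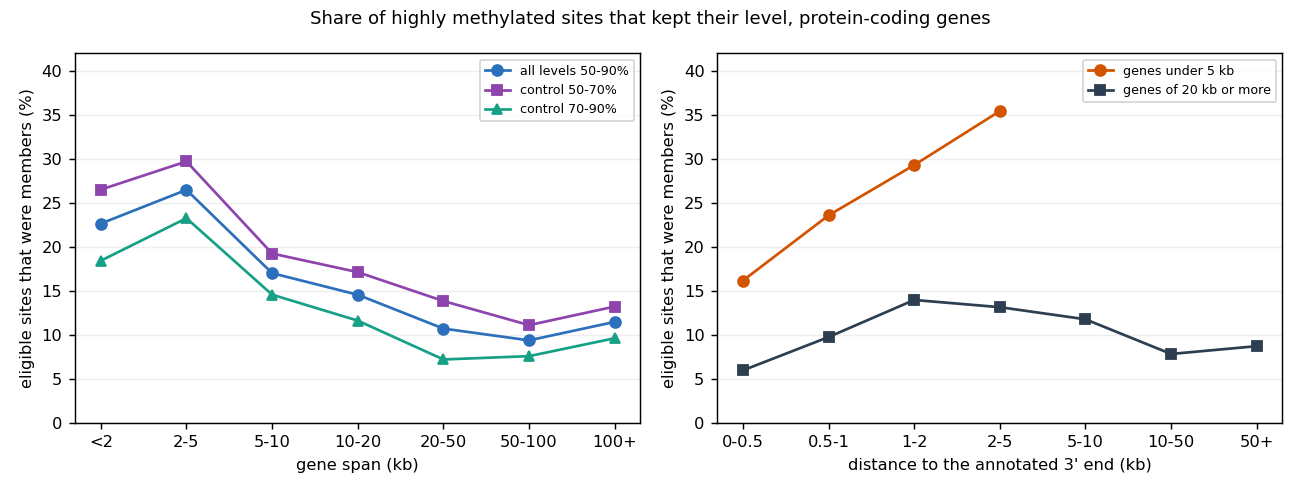
Percent of the eligible sites of protein-coding genes that were retained, by gene span in kb for all eligible sites and for 2 control level bands (left), and by distance to the annotated 3′ end for genes under 5 kb and of 20 kb or more (right). The share is highest at 2 to 5 kb (26.5% over all levels) and at 2 to 5 kb from the end in short genes (35.4%).

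By kind of gene, 1788 retained sites lay in protein-coding genes, 47 in long noncoding RNA genes, 45 in pseudogenes, 1 in a microRNA gene and 12 in names that matched no RefSeq gene. The retained share was 19.0% in long noncoding genes (47 of 248 eligible sites) and 13.3% in protein-coding ones. The deepest noncoding sites lay in TMEM99, which had 64.6% and 65.4% in control and 63.0% and 68.3% under ascorbic acid at chromosome 17 position 40834798, and in FAM27E4, LINC01123, URB1-AS1 and ARHGAP19-SLIT1. A listed site exactly 6 nt away stood beside 2.85% of the retained sites and 2.92% of the fallen ones. In pseudogenes, reads may come from the parent gene, so that EIF4A1P4 or CYCSP55 sites are uncertain as to gene.

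More of the eligible sites were retained at the first base of the transcript than elsewhere. An annotated start here is the first base of a RefSeq transcript window or of the named gene. Of 77 eligible sites that lay exactly at one, 46 (59.7%) were retained, each in a gene of its own, against 1847 of 14065 elsewhere (13.1%). Their median level was 57.1% and 62.9% in control and 61.4% and 61.1% under ascorbic acid. The 77 changed by a median of -0.99 points and the 14065 by -9.11 points. They were not matched on level, with control medians of 61.3% at starts and 69.2% elsewhere. Control library 1 read lower at starts than control library 2. Without control library 1 the retained share was 36.5% (31 of 85) at starts and 12.05% elsewhere, and without control library 2 it was 66.7% and 16.0%. With levels corrected for the unconverted share of the gene it was 64.2% (43 of 67). Start sites chosen with control 1 lost no more than 2 points in the held-out libraries in 25 of 44 and 22 of 45 cases (medians -1.77 and -2.05 points). For those chosen with control 2 it was 31 of 35 and 26 of 31 (medians 2.93 and -0.68 points).

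TUBA1C, an alpha-tubulin gene, was read deepest of these, with 55.9% and 57.5% in control and 56.9% and 55.0% under ascorbic acid at chromosome 12 position 49265082. ATP5F1B, the beta subunit of mitochondrial ATP synthase, had 65.0% and 66.8% against 64.7% and 66.1% at chromosome 12 position 56645984, the first base of the annotated gene. COX6A1, a cytochrome c oxidase subunit, had 66.2% and 69.9% against 67.8% and 66.5%. All 3 overlapped between the groups.

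The cytosolic chaperone HSP90AA1 had 71.4% and 72.6% in control and 71.3% and 70.2% under ascorbic acid. The beta-tubulin gene TUBB4B had 68.0% and 68.1% against 67.4% and 71.5%. HSP90AA1 was lower in both ascorbic acid libraries, by 1.25 points between the means, and TUBB4B was lower in one and higher in the other. The other retained start sites included the genes of PCNA, the sliding clamp of DNA replication, of the cytokine MIF, of B2M, the light chain of class I antigen presentation, and of MCL1, a survival protein of the BCL2 family. They also included POLR2L, PPIF, GLO1, UCHL1, MT1X, STMN1, SQSTM1 and GLUL, and over all 46 the change ran from -1.83 to 6.43 points.

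Of the 31 eligible start sites that were not retained, edgeR called 3 as fallen, which is 3.90% of the 77, beside 49.1% of all eligible sites. One of them lay in the pseudogene LOC402221, with 75.6% and 80.3% in control and 73.1% and 70.2% under ascorbic acid (-6.30 points, edgeR adjusted p = 0.00232). DDX5, an RNA helicase gene, was the deepest of the 31, with 69.1% and 71.3% in control and 67.6% in both ascorbic acid libraries, and was not called (edgeR adjusted p = 0.121). GLA changed by -5.63 points and PPDPF by -4.26 points, and the lowest change among the 77 was -14.2 points. None of the 77 fell by more than 20 points, against 18.9% of the eligible sites elsewhere.

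Starts of all levels, most of which the rule did not choose, changed little as well. At the 564 sites with at least 50 reads at an annotated start, the median level was 24.7% and 29.1% in control and 26.7% and 27.7% under ascorbic acid, so that the groups overlapped. At the 50915 other sites it was 36.7% and 38.3% in control and 30.7% and 30.6% under ascorbic acid. Below 50% in control, where the rule chose no site, the 486 start sites changed by a median of -0.0094 points and the 31837 others by -3.11 points. The start median thus lay 11.96 and 9.16 points below that of other sites in the control libraries and 3.95 and 2.91 points below it in the ascorbic acid libraries. This gap was 7.13 points narrower under ascorbic acid, and a two-sided exact permutation test of 2 against 2 libraries gave p = 0.333, the smallest it allows. The edgeR test called 4 of the 564 as fallen and 3 as risen, against 31.3% fallen and 0.293% risen among the 51479 sites with as many reads. PTBP1, a splicing repressor, had the deepest of these starts, with 24.5% and 24.4% in control and 22.9% and 23.2% under ascorbic acid. ENO1, a glycolytic enzyme, had 27.0% and 31.3% against 27.8% and 30.6%, and the nucleolar protein gene NCL 30.1% and 32.9% against 32.1% and 33.0%. PTBP1 was lower in both ascorbic acid libraries by less than 2 points, and ENO1 and NCL overlapped.

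Over all levels, sites close to a start changed little too, at lower levels. The median change was -0.61 points at 11 to 50 nt before it (107 sites), 0.23 points at 1 to 10 nt before (64 sites), -0.14 points at 1 to 10 nt after (273 sites) and -0.93 points at 11 to 50 nt after (217 sites). From 51 to 200 nt after it was -4.62 points (566 sites). The sites within 50 nt on either side had control medians of only 19.0% to 21.1%, over these classes. At eligible levels, 6 of 9 sites at 1 to 10 nt after a start were retained, but 2 of 9 at 11 to 50 nt before it (median change -8.999 points) and 4 of 14 at 11 to 50 nt after it (-9.10 points). Annotated starts are single positions, whereas transcripts of a gene often begin over a range of bases.

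**Figure D5:**
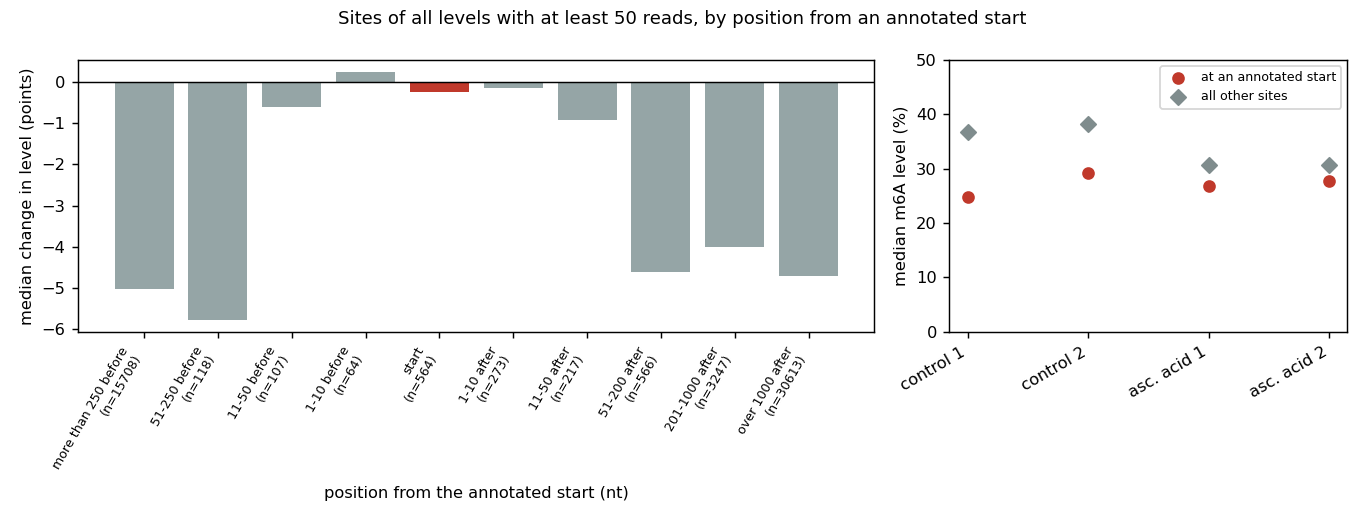
Left, median change in level (percentage points) of all sites with at least 50 reads by position from the nearest annotated start, with the start itself in red and the number of sites under each bar. Right, median level (percent) of sites at a start (circles) and of all other sites (diamonds) in each library. The bars within 50 nt of a start lie between -0.93 and 0.23 points and the others at -3.998 points or lower. Control levels were not matched between bars, with medians of 19.0% to 21.1% beside the start, 26.9% at it and 29.9% to 38.7% farther off. In the right panel the diamonds drop under ascorbic acid while the circles overlap between the groups.

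The genomic bases around these starts rarely matched DRACH, whose first letters lie here before the annotated transcript. RefSeq held a window for 36 of the 46 retained starts. In 31 a C and in 3 a T stood before the adenosine (94.4% together), as in TUBA1C and TUBB4B above, and 1, PPIF, matched DRACH. The base after it was G in 18, C in 9, T in 8 and A in 1. Of 468 such sites of all levels 94.4% had C or T before the adenosine and 1.71% matched DRACH, so that this was shared by starts at large. Over all 35116 RefSeq starts, 15605 (44.4%) had an adenosine as first base. Of these 15605, 13111 had a C or T before it, which is 37.3% of all starts. Among the 10 retained sites in these windows more than 10 nt from a start, 9 had C after the adenosine and 7 matched DRACH. Of all 345 sites of any level there, 61.2% and 38.8% did. The 345 were not matched to the 10 on level, so no difference is read from these shares. The motif was read in genomic sequence in the direction of the RNA, with the site at its centre. At a start, a match or a mismatch is thus one of the genomic sequence and not of the annotated RNA.

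Of the genes that write, read and erase the mark, those of the writer complex held the most retained sites, mainly in 2 adaptor genes. In this complex 12 of 42 eligible sites were retained, with a median change of -6.71 points over the 42, beside 13.4% and -9.06 points over all eligible sites. The edgeR test called 13 of the 42 as fallen and 0 as risen, where it called 49.1% of all eligible sites as fallen. RBM15, which guides the complex to RNA, had 6 of the 12, and its close relative RBM15B had 4. The deepest of RBM15B, at chromosome 3 position 51392735, had 76.0% and 82.8% in control and 78.6% and 77.8% under ascorbic acid. METTL3, the catalytic subunit, had 2 eligible sites, which changed by -31.5 and -26.4 points. METTL14 (2 sites, -13.3 and -5.81 points) and WTAP (6 sites, -14.9 to -2.73 points) had no retained site either.

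Among demethylases and related dioxygenases 3 of 14 eligible sites were retained, in ALKBH4, ALKBH1 and TET3, and edgeR called 2 of the 14 as fallen. ALKBH5 had 3 eligible sites, which changed by -7.06 to -3.41 points, and FTO had none. Among the readers 1 of 23 was retained, in YTHDF1, with 57.5% and 53.0% in control and 57.5% and 49.3% under ascorbic acid, and edgeR called 16 of the 23 as fallen. MAT2A, whose transcript METTL16 methylates, had 1 retained site of 4, with 66.9% and 65.4% against 65.0% and 66.2% at chromosome 2 position 85545017, and the other 3 fell by no more than 2.93 points. METTL16 itself had no eligible site.

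The remaining lists are given beside the 13.4% retained and 49.1% called fallen among all eligible sites. In genes with names beginning with ZNF, mostly zinc finger transcription factors, 88 of 425 eligible sites (20.7%) in 50 genes were retained, and edgeR called 133 of the 425 as fallen. Among transcripts often studied as m6A targets 19 of 106 (17.9%) were retained, with 49 called fallen, both near the shares over all eligible sites. SOX4, an intronless transcription factor gene, had 65.8% and 68.6% in control and 69.5% and 67.9% under ascorbic acid at chromosome 6 position 21594360. JUN, an AP-1 subunit, had 52.3% and 57.9% against 56.4% and 56.0%. Both overlapped between the groups.

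Among genes of messenger RNA decay 1 of 54 (1.85%) was retained, in DCP1B, a decapping factor, with 37 called fallen. Among cell cycle genes it was 1 of 15 (CDC25A), too few sites to set against the 13.4% over all eligible sites, with 14 called fallen. CDC25A, a phosphatase that activates cyclin-dependent kinases, had 61.7% and 62.5% in control and 60.5% and 60.6% under ascorbic acid, and both treated values were below both controls. Among genes of iron and ascorbate handling 4 of 33 were retained, with 19 called fallen. The deepest was in FTH1, the ferritin heavy chain, 3 nt after an annotated start, with 72.8% and 74.8% against 73.5% and 72.7%. Ribosomal protein names gave 4 of 40 with 22 called fallen, other RNA methyltransferases 1 of 7 (METTL4) with 3 called fallen, and replication-dependent histones had no eligible site. None of the lists had a site called as risen among its eligible sites.

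The sites that rose stood at the far end of the retained ones. The 5 that edgeR called as risen lay in ARID1A, IRF2BPL, FOXB1, SRCAP and CHMP6, and were named after their values were seen. They are 0.264% of the retained sites, beside 0.22% risen among all tested sites. The rule left out every eligible site that fell by more than 2 points, so the 2 shares cannot be compared. Over all 14142 eligible sites the risen were the same 5, and nothing about retained sites is read from their number. ARID1A, a subunit of the BAF chromatin remodelling complex, went from 82.9% and 77.6% to 90.6% and 88.4% at chromosome 1 position 26780431 (edgeR adjusted p = 0.0207). SRCAP, the ATPase of another remodelling complex, went from 50.5% and 50.0% to 62.7% and 55.7% (adjusted p = 0.0417). FOXB1, a forkhead factor, had the largest change, from 53.9% and 54.5% to 73.2% and 63.5% (adjusted p = 0.0321), on at least 71 reads. Both ascorbic acid libraries were above both controls at all 3, and neither limma nor DESeq2 called any of them. FJX1 (8.84 points) and PHF13 (8.15 points) were among the 5 largest rises with at least 100 reads and did not pass the edgeR test.

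Coverage of the genes that hold retained sites gave a second readout. Gene coverage, a deposited value per gene, was tested with limma over 11159 genes, of which 0.0448% fell and 0.224% rose at an adjusted p under 0.05. Of the 1328 genes with a retained site 0 fell (119 at an unadjusted p under 0.05) and 1 rose (77 at an unadjusted p under 0.05). The unadjusted counts have no share over all 11159 genes beside them, so nothing is read from them. The 1 was DUSP1, a phosphatase of MAP kinases (log2 change 0.47, SE 0.056, limma adjusted p = 0.0446), which was named after its value was seen. The median log2 change of the 1328 genes was -0.021, beside -0.0014 over all genes. In bulk samples, fewer RNA molecules per cell and fewer cells with the transcript cannot be told apart. Without control library 1 the median log2 change of the 1328 genes was -0.032, beside -0.00073 over all genes, and without control library 2 it was -0.0046, beside 0.00030.

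Conversion differed a little between the compared sites. The unconverted share of the gene, 1 minus the deposited conversion rate, had a median of 3.81% and 5.25% in control and 3.94% and 4.07% under ascorbic acid at retained sites. At fallen sites it was 3.23% and 4.69%, and 3.30% and 3.46%. It was thus higher at retained sites in every library and highest in control library 2. With levels corrected for it, the rule chose 1784 sites, of which 1713 were among the 1893.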

How the data were processed

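Each of the 4 libraries came as its own list of called sites. The A plus G and A read counts per site are whole, unscaled counts deposited by the authors, and the authors' level is a fraction, the A reads divided by A plus G. The conversion rate is a further deposited fraction, and gene coverage is a signal deposited by the authors whose unit no source defines. The p-value columns of each site, per the file headers, come from the authors' own site calling and were not used. The submitters' processing notes name Trimmomatic 0.39, STAR, hg38 and GRCh38, while the sources used here do not name the site caller. Deamination of 300 ng of mRNA ran for 8 h at 16 °C, per the labels' protocols. The least values in the lists are 15 A plus G reads, 5 with A and a level of 10%, so sites that fell below these in a library are in no comparison.

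The members, gene lists and tests were chosen with earlier results of these data known. For sites in all 4 lists with 20 or more reads per library, the main test was edgeR 4.0.16 (quasi-likelihood, a term per library, treatment effect on the odds of A), with DESeq2 1.42.0 and limma 3.58.1 (log2 odds, 0.5 added to A and G) as alternatives. Gene coverage, scaled by median ratios, was tested with limma on log2 values. Adjusted p-values are two-sided Benjamini-Hochberg values at 0.05 over all features. The scripts were tested on simulated data. A start is the start of a RefSeq promoter window or of the named gene's span, and 1318 of 1328 gene names matched RefSeq. Intervals are normal approximations on pooled reads at 95%.

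Named sites are, with 1 per gene unless said: the 10 deepest, the 10 highest with at least 200 reads, all of the 10 genes with most members and of genes with 4 or more eligible sites all retained, the 5 largest rises with at least 100 reads, the 3 deepest on each side of the limit, the 6 deepest within 50 nt of a start, the 10 deepest near a fall of over 20 points, up to 4 per list, the 5 deepest in long noncoding genes, and FTO, ALKBH5, METTL3, METTL14, WTAP, METTL16 and MAT2A. Start sites that fell or of any level were added later. A few items that these rules name are not reported here. R 4.3.3, Python 3.11.15, numpy 2.4.6, pandas 2.3.3, scipy 1.17.1 and matplotlib 3.10.9 were used.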

Additional observations from a re-analysis of the deposited data

How the results depend on the processing

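The number of retained sites followed the limits that define it: 3285 with at least 20 reads, 1059 with at least 100 reads, 4048 with a difference of at least -5 points, 954 with one of at least 0, 1217 at control levels of 60% to 90%, and 516 with a counting interval above -5 points. Leaving out 1 library gave 1765 to 2285 sites, of which 1223 to 1520 were among the 1893. Levels from pooled reads, corrected levels, control levels of 50% to 80% and sites without a listed site 6 nt away kept the number within 1.5 times. Among retained sites edgeR called 0 to 3 as fallen and 2 to 7 as risen when 1 library was left out, and limma and DESeq2 called 0 as risen. Held-out medians were -3.06 and -3.54 points when control 2 chose the sites. The median gene span was 16883.5 nt at control levels of 70% to 90% and 14142 nt with at least 100 reads, where the distance to the 3′ end was 2148 nt. The retained share of start sites was 77.9% with a difference of at least -5 points and 36.5% to 66.7% when 1 library was left out. For gene coverage of genes with a retained site, total-sum scaling let 5 rise, the replicate block gave 1 fall and 7 rises, and leaving out 1 library gave 0 to 8 falls and 0 to 9 rises. The cause of these differences was not tested. The deviations of same-numbered libraries correlated at 0.00051 over 54676 sites, and the main tests did not pair libraries by number. Counting error weakens this correlation and a shift common to all sites does not enter it, so it cannot exclude a shared batch. With the replicate block edgeR called 0 retained sites as fallen and 7 as risen. Of 76 alternatives, 52 left a result within its limits, 24 moved it and none reversed one. The interval, the start settings and 2 settings without sites 6 nt away or within 10 nt of a start were chosen after seeing the data.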

Other observations

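Sites that carry no gene name were outside the rule. Of those with at least 50 reads in each library and 50% to 90% in control, there were 756, with median levels of 66.1% and 67.3% in control and 58.8% and 58.9% under ascorbic acid. Their median change was -7.03 points, and in 457 of them both ascorbic acid libraries were below both controls. The only retained site in a microRNA gene lay in MIR12136, at chromosome 1 position 632652, with 76.1% and 76.0% in control and 82.5% and 78.0% under ascorbic acid.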
